A study of Mus musculus with 16 samples.

Results

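The 10 genes described here are target genes of the transcription factor p53 whose products promote cell death: Pmaip1 (Noxa), Bbc3 (Puma), Bax, Apaf1, Fas, Tnfrsf10b, Eda2r, Aen, Perp and Ei24. They were chosen by gene symbol with earlier results of these data known, so their counts beside those of all genes are descriptions. Each name matched 1 of the 46348 genes in the gene-level count table. All 10 passed the filter on low counts, which left 15494 genes to test, and their counts lay between 78 (Pmaip1) and 3018 (Bax) per library.

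The RNA came from MEC1, an established line of mouse epicardial cells, the cell type of the heart's outer layer. Poly(A) RNA was sequenced in 16 libraries, 2 from each of 8 groups. The cells received a control siRNA, an siRNA against PRMT1, an siRNA against p53, or both of the latter, and each of these 4 treatments was run without and with TGF-beta. Whether the groups with 1 targeting siRNA were topped up with control siRNA, how much siRNA was used, and the dose and time of TGF-beta are not given in the sources used here. The 2 libraries of a group are described as biological replicates. Since nothing states that they come from separate cultures, every p-value measures only the spread between these libraries. All groups share the same line, which models a cultured epicardial cell and not the tissue.

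p53 is a transcription factor that is kept low by its inhibitors Mdm2 and Mdm4 and that, once active, switches on genes for cell cycle arrest, DNA repair and cell death. Its death-promoting targets act on both routes to apoptosis. In the mitochondrial route, the BH3-only proteins Noxa and Puma block the pro-survival Bcl2 proteins, Bax opens the outer mitochondrial membrane, and Apaf1 builds the apoptosome that activates caspase 9. In the other route, death receptors of the TNF receptor family at the cell surface recruit caspase 8. PRMT1 is an enzyme that methylates arginines of histones and many other proteins, and the study's title links it to p53 through Mdm4. TGF-beta is a growth factor that drives epicardial cells towards a mesenchymal state.

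Library totals lay between 19617874 and 30759317 counts. The labels were checked on the siRNA targets: Prmt1 was at 48.1% of its control level with PRMT1 siRNA and 46.3% with both siRNAs, without TGF-beta in each case. Trp53, the p53 gene, was at 40.2% of control with p53 siRNA but at 65.5% with both siRNAs, so the cells with both siRNAs kept more p53 mRNA than those with p53 siRNA alone. The 10 epicardial markers examined summed to between 415 and 1821 CPM (counts scaled to a common library size). Their levels were uneven, so the sum does not describe each marker. Wt1 lay at 108 to 319 CPM, Bnc1 at 79.6 to 327, Upk3b at 21.7 to 696 and Gpm6a at 1.64 to 269. Aldh1a2, at 0.0847 to 1.14 CPM, and Krt8, at 0.214 to 1.59 CPM, were low in all 16 libraries. The 5 cardiomyocyte markers summed to between 0 and 0.264 CPM, the 5 haematopoietic markers to between 0.726 and 1.48 CPM and the 5 endothelial markers to between 4.16 and 9.29 CPM. Among the defining genes of these other types, Adgre1 had no count in any of the 16 libraries, Cd3e none in 14, Myh6 none in 13 and Cdh5 none in 7. Other markers had counts in all 16 libraries: Kdr at 2.92 to 7.47 CPM, Tek at 0.382 to 2.45, Pecam1 at 0.0885 to 0.671 and Cd68 at 0.726 to 1.48. In the group with p53 siRNA and TGF-beta, replicate 2 stood apart from all other libraries: the root mean square log2 difference to its partner was 0.805 over all genes tested, against 0.341 to 0.426 in the other 7 groups. It widens the spread that all comparisons share, so each comparison was also fitted on the other 15 libraries, a fit that takes the spread of its remaining partner from the 7 groups that have 2 libraries. In bulk RNA of this kind, a change in the share of cells that express a gene and a change in RNA per cell cannot be told apart.

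The promoters are shown here because p53 acts by binding response elements near its target genes. In RefSeq's promoter windows (assembly GRCm38.p6, the build of mm10), 7 of the 10 members had an entry: Bbc3, Bax, Apaf1, Fas, Eda2r, Aen and Ei24. The 250 bases before each start were searched for the p53 response element, which is made of 2 parts of 10 bases with 0 to 1 base between them. Up to 3 mismatches in 20 bases were allowed, with the central C and G of each part required, and since the element is palindromic the search covers both strands. Of 32851 promoter windows scanned, 2.28% held such an element. The 7 members had 10 windows, of which 3 held one: the window of Bax, 1 of the 3 windows of Bbc3 and 1 of the 2 of Aen. Those of Fas, Eda2r, Apaf1 and Ei24 did not. The element is in capitals in the lines that follow. That of Bbc3 lies 97 to 78 bases before the start with 3 mismatches (window chr7:16309446-16309545, plus strand), and that of Bax lies 201 to 181 bases before the start with 2 mismatches and 1 base between the parts (window chr7:45467039-45467139, minus strand).
Bbc3: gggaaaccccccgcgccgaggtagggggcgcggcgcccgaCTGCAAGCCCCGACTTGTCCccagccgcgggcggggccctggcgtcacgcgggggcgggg
Bax: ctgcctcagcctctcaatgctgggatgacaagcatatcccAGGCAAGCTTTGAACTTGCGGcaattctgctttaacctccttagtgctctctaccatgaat
Aen: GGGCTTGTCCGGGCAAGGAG
The element of Aen, 121 to 102 bases before the start with 3 mismatches, is given alone because its surroundings overlap an annotated exon. A match by letters is a description and shows no binding.

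Levels differed widely between the members. The CPM use library sizes scaled by edgeR's TMM factors. Per kilobase of exon, so that genes of different length can be set side by side, Bax had the highest level in cells with control siRNA and no TGF-beta, 39.6 CPM per kilobase. Ei24 (12.5), Fas (11.1), Aen (8.35), Eda2r (7.77), Apaf1 (6.89), Perp (6.75), Tnfrsf10b (5.15) and Bbc3 (4.76) followed, and Pmaip1 had the lowest, 2.59 CPM per kilobase. Across the 16 libraries, Eda2r varied most, with a highest CPM 10.2 times its lowest, followed by Pmaip1 at 7.07 times. Ei24 varied least, 1.69 times. By the single library with the highest CPM, the members fell into 3 sets. For Pmaip1, Tnfrsf10b and Eda2r it was one with PRMT1 siRNA and no TGF-beta. For Bax, Aen, Ei24, Perp and Apaf1 it was one with TGF-beta under control or PRMT1 siRNA. For Bbc3 and Fas it was the one that stood apart. This sorting rests on 1 library per gene. By group means, Ei24 (86.3 CPM) and Bbc3 (12.4 CPM) were highest with PRMT1 siRNA and no TGF-beta. Their means with PRMT1 siRNA and TGF-beta were close, at 85.8 and 12.1 CPM.

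**Figure D1:**
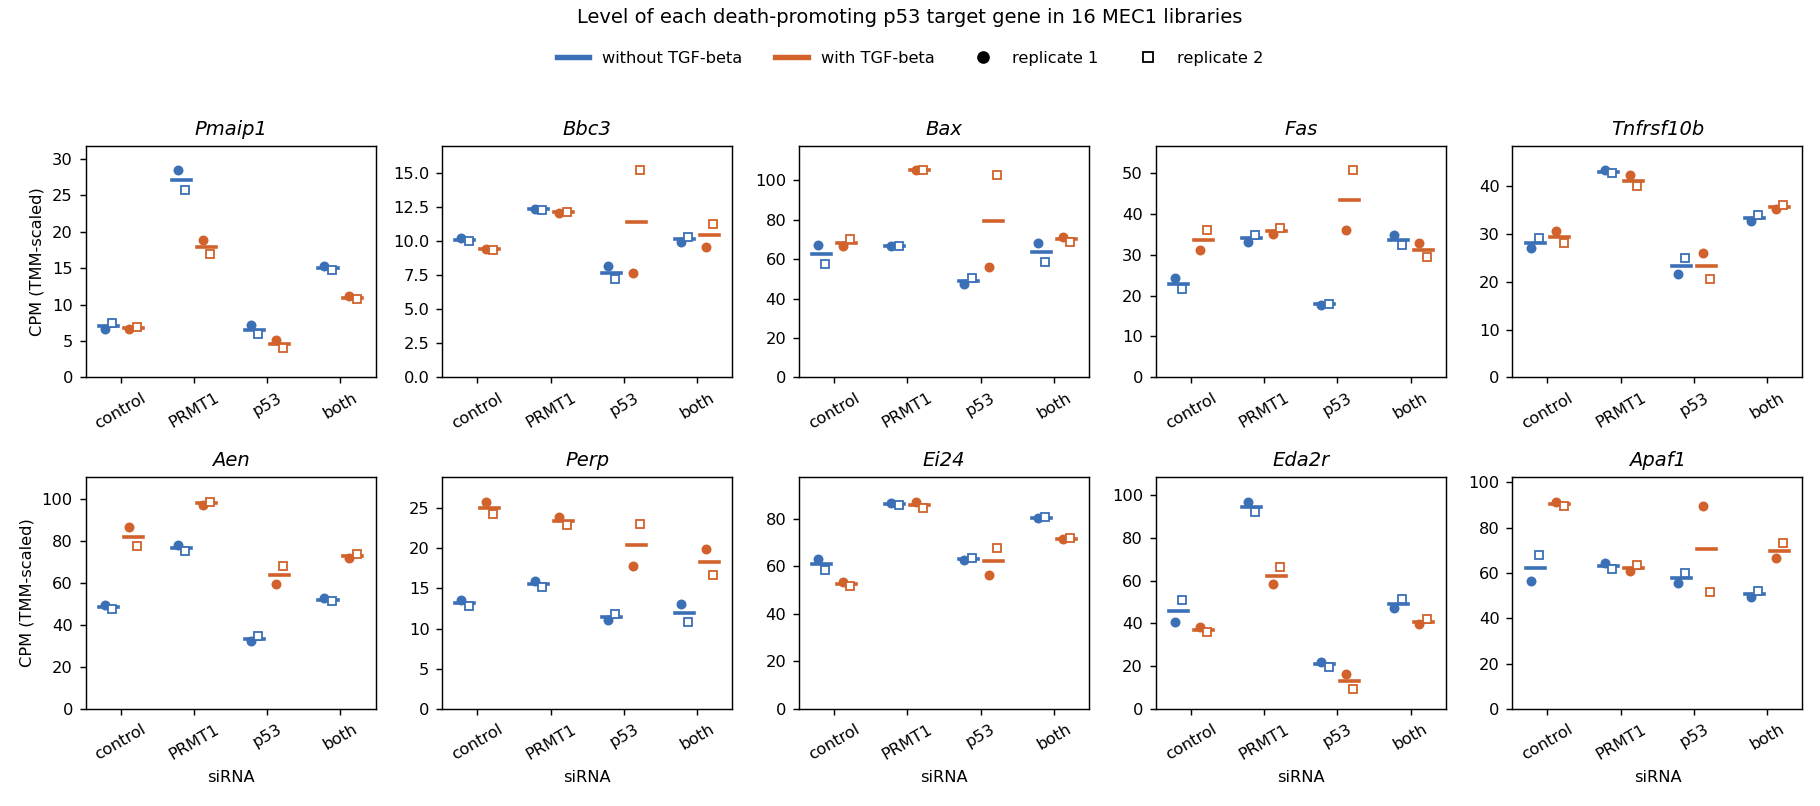
Level of each member in CPM (vertical axes, linear, from 0) under each siRNA treatment (horizontal axes), without TGF-beta in blue and with TGF-beta in orange. Filled circles are replicate 1, open squares replicate 2 and bars the mean of the 2 libraries. Pmaip1 and Eda2r are highest with PRMT1 siRNA without TGF-beta (27.1 and 94.6 CPM on average), and the 2 libraries of p53 siRNA with TGF-beta lie far apart for Bbc3, Bax, Fas and Apaf1.

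The first comparison asks how the death genes respond to loss of PRMT1. Without TGF-beta, 6 of the 10 members rose with PRMT1 siRNA and none fell: Pmaip1, Eda2r, Aen, Tnfrsf10b, Fas and Ei24. A gene is said to rise or fall where its adjusted p was under 0.05 in edgeR's quasi-likelihood test, with Benjamini-Hochberg adjustment over all genes tested. Of those genes, 10.3% were called, 4.48% as higher and 5.85% as lower. The members' median log2 change was 0.54, against 0.01 over all genes tested. In 8 members both libraries with PRMT1 siRNA lay above both control libraries, as in 30.8% of all genes, and in none both below (29.6%).

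The largest change was in Pmaip1 (mm10 chromosome 18, 66458604 to 66465550, plus strand), whose product Noxa neutralises the pro-survival protein Mcl1. Its level was 6.68 and 7.50 CPM in the 2 control libraries and 28.4 and 25.8 CPM with PRMT1 siRNA. The groups did not overlap, and the log2 change was 1.94 ± 0.13 (SE), a 3.82-fold rise (adjusted p = 1.59e-05, edgeR). Bbc3 (chromosome 7, 16309616 to 16318205, plus strand), whose product Puma binds all the main pro-survival Bcl2 proteins, was at 10.2 and 10.01 CPM in control and 12.4 and 12.3 CPM with PRMT1 siRNA. Its libraries did not overlap either, but the change of 0.29 ± 0.22 did not pass the test (adjusted p = 0.495, edgeR). On 15 libraries, with a smaller shared spread, the same change was 0.28 ± 0.09 and passed (adjusted p = 0.0403, edgeR), which makes 7 members higher where 27.9% of all genes were called, 12.4% as higher and 15.5% as lower. Bax (chromosome 7, 45461695 to 45466898, minus strand) was at 67.2 and 57.7 CPM in control and at 66.5 and 66.7 CPM with PRMT1 siRNA, so the groups overlapped. It shares 192 exon bases with Gm45808 on the same strand, so part of its count is uncertain. Apaf1 (chromosome 10, 90989311 to 91082770, minus strand) overlapped as well, at 56.3 and 68.1 CPM against 64.4 and 61.8 CPM. The mitochondrial machinery downstream of the BH3-only genes thus showed log2 changes of 0.09 ± 0.20 in Bax and 0.02 ± 0.19 in Apaf1, neither past the test.

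All 3 genes of the TNF receptor family among the members rose with PRMT1 siRNA without TGF-beta. Eda2r (chromosome X, 97333840 to 97377216, minus strand), which encodes the receptor for ectodysplasin A2, went from 40.5 and 51.0 CPM to 96.9 and 92.2 CPM. This was a 2.07-fold rise (log2 1.05 ± 0.18, adjusted p = 0.00427, edgeR). Tnfrsf10b (chromosome 14, 69767472 to 69784403, plus strand), the mouse death receptor for TRAIL, went from 26.9 and 29.2 CPM to 43.2 and 42.7 CPM (log2 0.61 ± 0.11, adjusted p = 0.00452, edgeR). Fas (chromosome 19, 34290659 to 34327770, plus strand), the receptor of Fas ligand, went from 24.3 and 21.5 CPM to 33.1 and 34.8 CPM (log2 0.57 ± 0.14, adjusted p = 0.0263, edgeR). In none of the 3 did the libraries of the groups overlap.

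Of the other effectors, Aen and Ei24 rose. Aen (chromosome 7, 78895854 to 78911209, plus strand) encodes a nuclease that takes part in DNA breakdown, and its level went from 49.3 and 47.5 CPM to 78.3 and 75.2 CPM. The log2 change was 0.66 ± 0.08 (adjusted p = 0.000527, edgeR). Ei24 (chromosome 9, 36779159 to 36797361, minus strand), which encodes a membrane protein of the endoplasmic reticulum, went from 63.2 and 58.6 CPM to 86.7 and 85.8 CPM (log2 0.50 ± 0.08, adjusted p = 0.0033, edgeR). Ei24 shares 324 exon bases with the antisense gene Gm26787, and the library strand is not given in the sources used here, so reads of the pair cannot be told apart. Perp (chromosome 10, 18845071 to 18857073, plus strand), which encodes a tetraspan membrane protein also found in desmosomes, was at 13.6 and 12.8 CPM in control and 15.9 and 15.2 CPM with PRMT1 siRNA. Its libraries did not overlap, and its change of 0.24 ± 0.14 did not pass the test (adjusted p = 0.318, edgeR). With any 1 of the 4 libraries left out, Pmaip1, Tnfrsf10b, Aen and Eda2r passed in all 4 fits. Fas passed in none (adjusted p 0.0823 to 0.19, edgeR), and Ei24 did not pass without replicate 2 of control siRNA (adjusted p = 0.0527, edgeR).

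With TGF-beta in both groups, PRMT1 siRNA raised 5 members: Pmaip1, Ei24, Eda2r, Tnfrsf10b and Aen. In that comparison 15.7% of all genes were called, 9.13% as higher and 6.53% as lower. The median log2 change of the members was 0.43, against 0.02 over all genes. Higher levels without overlap were seen in 7 members (39.2% of all genes) and lower ones in 2 (35.5%). Trp53 itself rose in this comparison, from 148 CPM in both libraries to 192 and 187 CPM (log2 0.36 ± 0.09, adjusted p = 0.0251, edgeR), though in none of the 4 fits with 1 library left out (adjusted p 0.116 to 0.132, edgeR). Its part in the members' changes was not tested.

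Pmaip1 went from 6.59 and 6.95 CPM with control siRNA and TGF-beta to 18.8 and 16.9 CPM (log2 1.40 ± 0.13, adjusted p = 7.36e-05, edgeR). Ei24 went from 53.3 and 51.7 CPM to 87.2 and 84.4 CPM, a log2 change of 0.71 ± 0.08 (adjusted p = 0.00033, edgeR). Eda2r went from 38.4 and 35.9 CPM to 58.3 and 66.6 CPM, a log2 change of 0.75 ± 0.18 (adjusted p = 0.0184, edgeR). In these 3 genes the groups lay well apart. Tnfrsf10b changed from 30.6 and 28.1 CPM to 42.2 and 39.99 CPM (log2 0.49 ± 0.11, adjusted p = 0.0118, edgeR). Aen was already at 86.4 and 77.6 CPM with TGF-beta alone and reached 97.1 and 98.7 CPM, a change of 0.26 ± 0.08 that just passed (adjusted p = 0.0499, edgeR).

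Bax and Apaf1, the pore former and the apoptosome scaffold, moved in opposite directions under PRMT1 siRNA with TGF-beta, and neither passed on all libraries. Bax was at 66.7 and 70.1 CPM with control siRNA and at 105 CPM in both libraries with PRMT1 siRNA, without overlap (log2 0.62 ± 0.20, adjusted p = 0.0585, edgeR). Apaf1 was at 91.4 and 89.7 CPM with control siRNA and at 60.7 and 63.3 CPM with PRMT1 siRNA, also without overlap (log2 -0.55 ± 0.19, adjusted p = 0.0684, edgeR). On 15 libraries, where 43.1% of all genes were called, 22.4% as higher and 20.7% as lower, both passed (adjusted p = 6.34e-05 and 0.000121, edgeR). Bax is the member with the shortest exon sequence, 1576 bases, and Apaf1 that with the longest, 9028 bases. The trend of log2 CPM with exon length also differed between these groups: its slope per 10-fold length, relative to each gene's mean over the libraries, was 0.18 in both libraries with control siRNA and TGF-beta and -0.17 and -0.10 in those with PRMT1 siRNA and TGF-beta. With that trend removed from the 15 libraries, the changes were 0.36 in Bax and -0.41 in Apaf1, and both still passed (adjusted p = 0.000103 and 6.14e-05, edgeR). Fas, at 31.1 and 36.1 CPM against 35.1 and 36.5 CPM, overlapped between the groups. Bbc3 was at 9.43 and 9.40 CPM against 12.1 and 12.2 CPM (log2 0.36 ± 0.23, adjusted p = 0.275, edgeR), and passed on 15 libraries (adjusted p = 0.00784, edgeR). Perp, at 25.8 and 24.3 CPM against 23.9 and 22.9 CPM, changed by -0.10 ± 0.13 and did not pass (adjusted p = 0.618, edgeR). With the length trend removed from the 15 libraries Perp was at -0.31 and passed (adjusted p = 0.00728, edgeR). With any 1 of the 4 libraries left out, Pmaip1 and Ei24 passed in all 4 fits. Aen (adjusted p 0.0743 to 0.278) and Eda2r (0.058 to 0.12) passed in none of those edgeR fits, and Tnfrsf10b did not pass without replicate 2 of control siRNA with TGF-beta or without replicate 1 of PRMT1 siRNA with TGF-beta (adjusted p = 0.0991 and 0.0859, edgeR).

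The next comparison asks which of these genes respond when p53 itself is lowered. Without TGF-beta, 2 of the 10 members fell with p53 siRNA, Eda2r and Aen, and none rose. Of all genes, 2.47% were called, of which 1.17% of all genes rose and 1.29% fell. The members' median log2 change was -0.31 against 0.01 over all genes, and 7 members were lower without overlap between the libraries (24.9% of all genes) while none was higher (26.5%). The p53 siRNA and PRMT1 siRNA comparisons use the same control libraries, so their values are given side by side and not set against each other. The 5 endothelial markers summed to 4.16 to 4.84 CPM in the control libraries, 6.14 to 7.53 CPM with PRMT1 siRNA and 8.36 to 8.40 CPM with p53 siRNA, and their part in the result was not tested.

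Eda2r dropped from 40.5 and 51.0 CPM with control siRNA to 22.0 and 19.7 CPM with p53 siRNA, 2.19-fold lower (log2 -1.13 ± 0.19, adjusted p = 0.00999, edgeR). Aen dropped from 49.3 and 47.5 CPM to 32.4 and 34.6 CPM (log2 -0.53 ± 0.08, adjusted p = 0.00689, edgeR). Pmaip1, the member most responsive to PRMT1 siRNA, was at 7.17 and 5.92 CPM with p53 siRNA, overlapping its control libraries (log2 -0.12 ± 0.13, adjusted p = 0.817, edgeR). The death receptor genes Fas and Tnfrsf10b were lower without overlap but did not pass: Fas at 17.8 CPM in both libraries (log2 -0.36 ± 0.14, adjusted p = 0.274, edgeR), and Tnfrsf10b at 21.5 and 24.9 CPM (log2 -0.27 ± 0.11, adjusted p = 0.272, edgeR). Bbc3, at 8.21 and 7.20 CPM, and Bax, at 47.3 and 50.6 CPM, were also lower in both libraries, with log2 changes of -0.39 ± 0.23 and -0.35 ± 0.20. Perp, at 11.1 and 11.8 CPM, changed by -0.20 ± 0.14. Ei24, at 62.5 and 63.3 CPM, and Apaf1, at 55.6 and 60.0 CPM, overlapped with control. On 15 libraries Bbc3, Bax, Fas and Tnfrsf10b passed as well (adjusted p = 0.0194, 0.0126, 0.0219 and 0.0319, edgeR), which makes 6 members lower and none higher, where 12.1% of all genes were called, 5.81% as higher and 6.33% as lower. Aen did not pass without replicate 1 of control siRNA (adjusted p = 0.106, edgeR) or without replicate 1 of p53 siRNA (0.12). Eda2r passed only without replicate 1 of control siRNA, at adjusted p 0.0738 to 0.0916 in the other 3 edgeR fits.

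With TGF-beta, p53 siRNA lowered 3 members, Eda2r, Pmaip1 and Aen, and raised none. The share of all genes called was 5.21%, with 2.39% lower and 2.82% higher, and the members' median log2 change was -0.32 against 0.03 over all genes. Lower levels without overlap were seen in 6 members (21.9% of all genes) and a higher level in 1, Ei24 (22.9%). This comparison holds the library that stood apart, and without it 4.43% of all genes were called, 1.99% as higher and 2.43% as lower. A fit of only these 2 groups called no gene at all, with an adjusted p of 0.713 for each of the 3 members (edgeR). Eda2r was at 16.2 and 9.49 CPM against 38.4 and 35.9 CPM with control siRNA (log2 -1.53 ± 0.19, adjusted p = 0.00147, edgeR), and at -1.20 ± 0.14 without that library (adjusted p = 0.000359, edgeR). Aen was at 59.6 and 67.9 CPM against 86.4 and 77.6 CPM (log2 -0.36 ± 0.08, adjusted p = 0.0271, edgeR), and at -0.46 ± 0.07 without it. These genes were lower with and without the library. Pmaip1 was at 5.16 and 4.02 CPM against 6.59 and 6.95 CPM (log2 -0.56 ± 0.14, adjusted p = 0.0462, edgeR) and did not pass without the library (log2 -0.40 ± 0.16, adjusted p = 0.203, edgeR). Perp, at 17.7 and 23.0 CPM against 25.8 and 24.3 CPM, passed only without it (log2 -0.50 ± 0.13, adjusted p = 0.0387, edgeR). The other 6 members did not pass with or without the library, and 2 of them changed sign. Bbc3 was at 0.27 ± 0.23 on the log2 scale with it and at -0.31 ± 0.13 without it, and Bax at 0.21 ± 0.20 and -0.29 ± 0.10. Fas was at 0.36 ± 0.14 and 0.08 ± 0.10, Tnfrsf10b at -0.33 ± 0.11 and -0.18 ± 0.09, Apaf1 at -0.36 ± 0.19 and -0.02 ± 0.09, and Ei24 at 0.24 ± 0.08 and 0.10 ± 0.07. With a control library left out, Pmaip1 did not pass in either case (adjusted p = 0.165 without replicate 1 and 0.204 without replicate 2, edgeR), nor did Aen (0.214 and 0.0552), while Eda2r passed in all 4 fits.

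**Figure D2:**
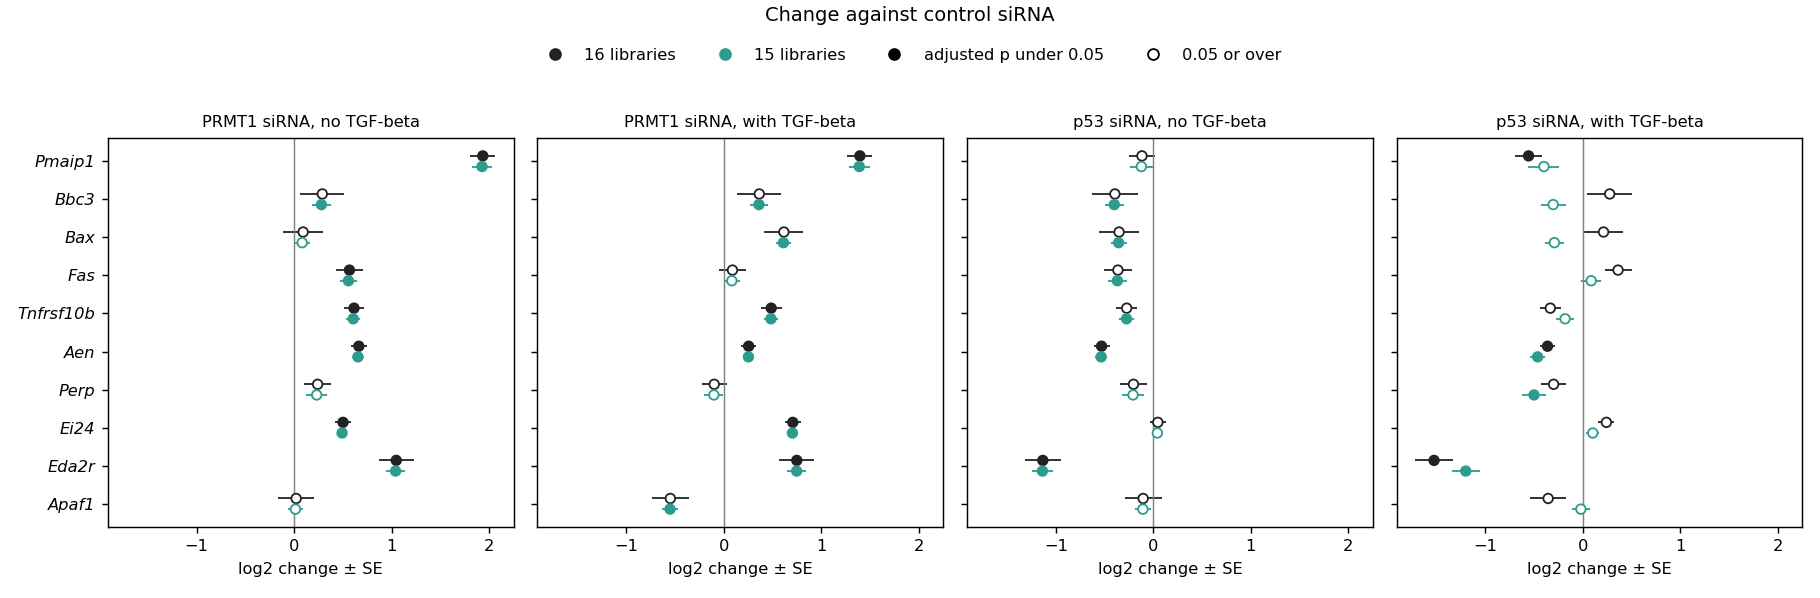
Log2 change of each member against control siRNA (horizontal axis), with its standard error, for PRMT1 siRNA and p53 siRNA without and with TGF-beta. Black points come from 16 libraries and green points from 15, and filled points have an adjusted p under 0.05. Pmaip1 lies farthest to the right with PRMT1 siRNA (1.94 and 1.40) and Eda2r farthest to the left with p53 siRNA (-1.13 and -1.53).

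The groups with both siRNAs show how the members respond to PRMT1 siRNA in cells with less p53, and to p53 siRNA in cells with less PRMT1. Since Trp53 itself was 1.63-fold higher with both siRNAs than with p53 siRNA alone without TGF-beta (log2 0.71 ± 0.09, adjusted p = 0.000962, edgeR), these comparisons differ in p53 mRNA as well as in Prmt1. Its part in the result was not tested. Added to p53 siRNA without TGF-beta, PRMT1 siRNA raised 6 members: Eda2r, Pmaip1, Fas, Aen, Tnfrsf10b and Ei24. In that comparison 10.7% of all genes were called, 5.51% as higher and 5.18% as lower. The median log2 change was 0.46 for the members and 0.01 over all genes, and 8 members were higher without overlap (33.7% of all genes) and 1, Apaf1, lower (32.6%).

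Eda2r was at 22.0 and 19.7 CPM with p53 siRNA and at 47.3 and 51.3 CPM with both (log2 1.24 ± 0.19, adjusted p = 0.00192, edgeR). Pmaip1 was at 7.17 and 5.92 CPM and then at 15.3 and 14.7 CPM, a 2.29-fold rise (log2 1.20 ± 0.13, adjusted p = 0.000271, edgeR). Fas was at 17.8 CPM in both libraries and then at 34.8 and 32.3 CPM (log2 0.91 ± 0.14, adjusted p = 0.00238, edgeR). In each of these genes the level with both siRNAs lay well above that with p53 siRNA alone. Aen went from 32.4 and 34.6 CPM to 52.6 and 51.3 CPM (log2 0.63 ± 0.08, adjusted p = 0.000773, edgeR). Tnfrsf10b went from 21.5 and 24.9 CPM to 32.7 and 33.9 CPM (log2 0.52 ± 0.11, adjusted p = 0.011, edgeR), and Ei24 from 62.5 and 63.3 CPM to 80.5 and 80.6 CPM (log2 0.36 ± 0.08, adjusted p = 0.0179, edgeR). All 6 also rose with PRMT1 siRNA in cells with control siRNA, a comparison that shares no library with this one but the same estimate of the spread. The share of all genes that rose in both was not computed, so this count is no result about the members. Bbc3 at 9.97 and 10.3 CPM and Bax at 68.1 and 58.7 CPM with both siRNAs lay above both libraries with p53 siRNA (log2 0.40 ± 0.23 and 0.37 ± 0.20) and passed only on 15 libraries (adjusted p = 0.00712 and 0.00341, edgeR), where 32.5% of all genes were called, 16.2% as higher and 16.3% as lower. Perp, at 13.01 and 10.8 CPM with both siRNAs, overlapped, and Apaf1, at 49.2 and 52.3 CPM, did not pass (log2 -0.19 ± 0.19, adjusted p = 0.569, edgeR). When each of the 4 libraries was left out in turn, Pmaip1, Fas, Aen and Eda2r passed in all 4 fits and Ei24 in none (adjusted p 0.0813 to 0.125, edgeR). Tnfrsf10b passed only without replicate 2 of p53 siRNA (adjusted p 0.0522 to 0.123 in the other 3 edgeR fits).

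With TGF-beta, PRMT1 siRNA added to p53 siRNA raised 3 members, where 10.2% of all genes were called, 5.46% as higher and 4.69% as lower. Eda2r went from 16.2 and 9.49 CPM to 39.6 and 42.1 CPM (log2 1.66 ± 0.19, adjusted p = 0.000477, edgeR). Pmaip1 went from 5.16 and 4.02 CPM to 11.1 and 10.7 CPM (log2 1.25 ± 0.14, adjusted p = 0.000341, edgeR). Tnfrsf10b went from 25.9 and 20.6 CPM to 35.1 and 35.9 CPM (log2 0.61 ± 0.11, adjusted p = 0.00547, edgeR). All 3 passed in all 4 fits with 1 library left out, and their changes without the library that stood apart were 1.34, 1.09 and 0.46. The members' median log2 change was 0.09 on all libraries against -0.01 over all genes, and 0.34 on 15 libraries, and 5 members were higher without overlap (22% of all genes) and 1 lower (19.8%). For Bbc3 and Bax the sign depends on that library. With both siRNAs and TGF-beta they were at 9.62 and 11.3 CPM and at 71.4 and 68.8 CPM, between the 2 libraries of p53 siRNA with TGF-beta, 7.65 and 15.2 CPM for Bbc3 and 56.1 and 102 CPM for Bax. Their log2 changes were -0.12 ± 0.22 and -0.18 ± 0.20 with it, and 0.46 ± 0.12 and 0.33 ± 0.10 without it (adjusted p = 0.0272 and 0.0483, edgeR). Apaf1, at 66.4 and 73.3 CPM against 89.6 and 51.8 CPM, was at -0.02 ± 0.19 with it and at -0.35 ± 0.09 without it (adjusted p = 0.0267, edgeR). Without the library Aen and Ei24 also passed (log2 0.30 and 0.35, adjusted p = 0.0188 and 0.00349, edgeR), which makes 7 members higher and 1 lower where 11.8% of all genes were called, 6.86% as higher and 4.98% as lower. Fas (log2 -0.47 ± 0.14 with the library and -0.20 ± 0.10 without it) and Perp (-0.15 ± 0.13 and 0.05 ± 0.13) did not pass either way.

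Added to PRMT1 siRNA without TGF-beta, p53 siRNA lowered 3 members, Pmaip1, Eda2r and Aen, and raised none. Only 0.865% of all genes were called in this comparison, and 0.297% fell. The members' median log2 change was -0.34 against 0.01 over all genes, and 8 members were lower without overlap (29.5% of all genes). The trend with exon length differed between these groups, with slopes of 0.16 and 0.14 with PRMT1 siRNA and -0.18 and -0.09 with both siRNAs. With length offsets on 16 libraries 4 members fell, where 198 of all genes did. Pmaip1 dropped from 28.4 and 25.8 CPM with PRMT1 siRNA to 15.3 and 14.7 CPM with both, 1.81-fold lower (log2 -0.85 ± 0.12, adjusted p = 0.0135, edgeR). This level still lay above the 6.68 and 7.50 CPM of the control libraries. Eda2r dropped from 96.9 and 92.2 CPM to 47.3 and 51.3 CPM (log2 -0.94 ± 0.18, adjusted p = 0.041, edgeR) and Aen from 78.3 and 75.2 CPM to 52.6 and 51.3 CPM (log2 -0.56 ± 0.08, adjusted p = 0.0137, edgeR). With both siRNAs Eda2r was at 108% of its control level and Aen at 107%, while Pmaip1 was at 211%, Fas at 146% and Ei24 at 132%. Fas was at 34.8 and 32.3 CPM with both siRNAs and 33.1 and 34.8 CPM with PRMT1 siRNA, overlapping (log2 -0.02 ± 0.14, adjusted p = 0.954, edgeR). Ei24 was at 80.5 and 80.6 CPM against 86.7 and 85.8 CPM (log2 -0.10 ± 0.08, adjusted p = 0.541, edgeR). With any 1 of the 4 libraries left out, none of the 3 genes passed (adjusted p 0.083 to 0.388, edgeR), and 4 to 9 of all genes did. On 15 libraries Bbc3, Tnfrsf10b, Perp and Apaf1 passed too (log2 -0.28, -0.36, -0.37 and -0.31, adjusted p = 0.043, 0.00392, 0.0249 and 0.0147, edgeR), which makes 7 members lower where 22.8% of all genes were called, 12.1% as higher and 10.8% as lower. Bax, at 68.1 and 58.7 CPM against 66.5 and 66.7 CPM, overlapped.

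With TGF-beta, p53 siRNA added to PRMT1 siRNA lowered Pmaip1 and Aen, where 0.452% of all genes were called and 0.232% fell. The members' median log2 change was -0.31 against 0.00 over all genes, and 9 members were lower without overlap (30.7% of all genes) and Apaf1 higher (30.8%). The trend with exon length differed between these groups as well. Its slope was -0.17 and -0.10 with PRMT1 siRNA and 0.08 and 0.19 with both siRNAs, all with TGF-beta. With length offsets on 16 libraries 1 member fell, where 94 of all genes did. Bax has the shortest exon sequence of the members, 1576 bases, and its change below is given without these offsets. Pmaip1 dropped from 18.8 and 16.9 CPM to 11.1 and 10.7 CPM (log2 -0.71 ± 0.12, adjusted p = 0.033, edgeR) and Aen from 97.1 and 98.7 CPM to 71.7 and 73.9 CPM (log2 -0.43 ± 0.08, adjusted p = 0.047, edgeR). Bax, at 105 CPM in both libraries with PRMT1 siRNA and at 71.4 and 68.8 CPM with both siRNAs, did not pass on 16 libraries (log2 -0.58 ± 0.20, adjusted p = 0.332, edgeR) and did on 15 (adjusted p = 0.00106, edgeR). Eda2r was at 39.6 and 42.1 CPM against 58.3 and 66.6 CPM, with the same outcome (log2 -0.61 ± 0.18, adjusted p = 0.238 on 16 libraries and 0.00217 on 15, edgeR). Perp and Ei24 also passed on 15 libraries (log2 -0.35 and -0.25, adjusted p = 0.0317 and 0.00738, edgeR), which makes 6 members lower where 13.2% of all genes were called, 6.2% as higher and 7.03% as lower. Bbc3 (log2 -0.21 ± 0.22), Fas (-0.20 ± 0.14), Tnfrsf10b (-0.21 ± 0.10) and Apaf1 (0.17 ± 0.19) did not pass on 16 or 15 libraries. Neither Pmaip1 nor Aen passed with 1 library left out (adjusted p 0.139 to 0.452, edgeR).

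**Figure D3:**
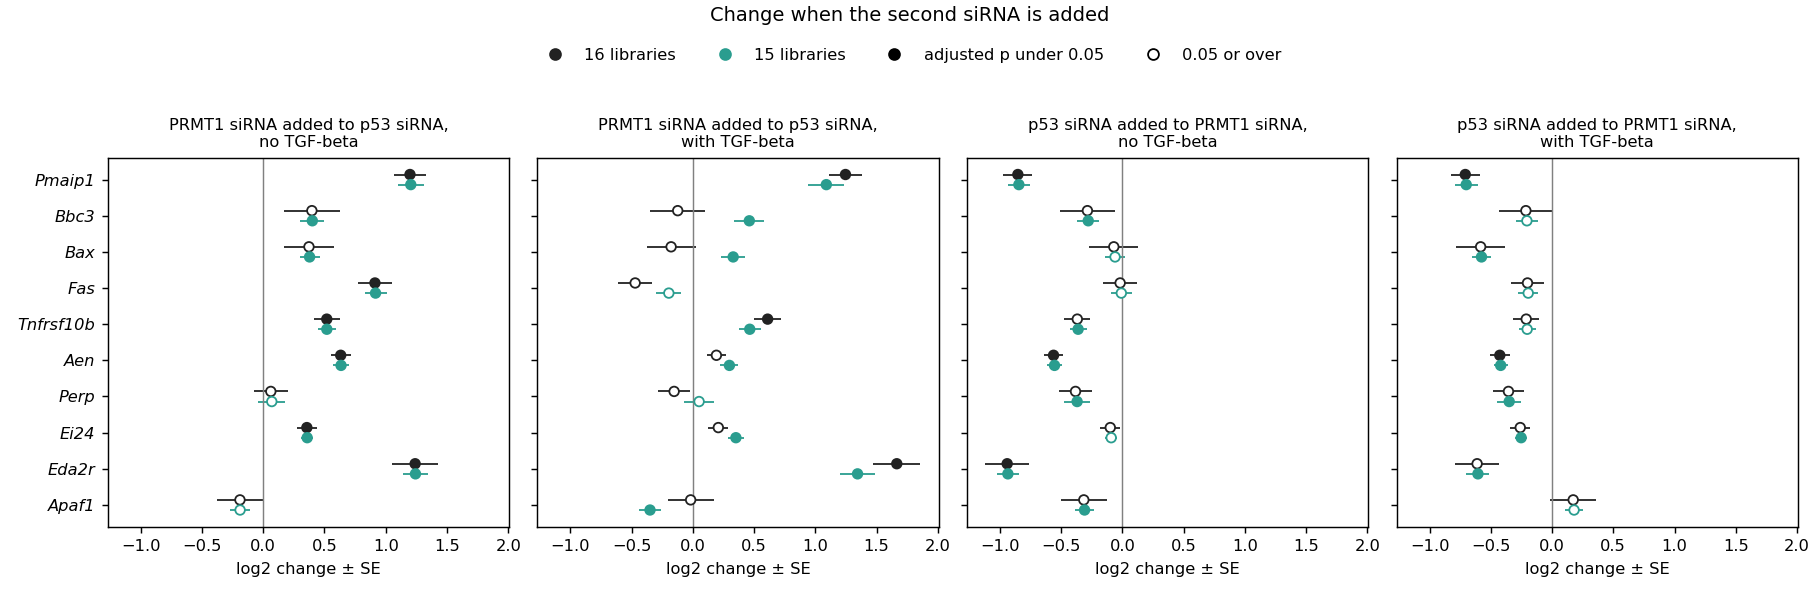
Log2 change of each member, with its standard error, when PRMT1 siRNA is added to p53 siRNA or p53 siRNA to PRMT1 siRNA, without and with TGF-beta (horizontal axis). Black points come from 16 libraries and green points from 15, and filled points have an adjusted p under 0.05. Pmaip1 and Eda2r lie to the right of 0 with added PRMT1 siRNA and to the left with added p53 siRNA, and Bbc3 and Bax change sign between black and green in the panel of PRMT1 siRNA added to p53 siRNA with TGF-beta.

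The last set of comparisons asks how the members respond to TGF-beta. With control siRNA, TGF-beta raised 4 members, Perp, Aen, Fas and Apaf1, and lowered none. In that comparison 38.4% of all genes were called, 17.8% as higher and 20.6% as lower. The members' median log2 change was 0.10 against -0.01 over all genes, and 4 members were higher without overlap (36.1% of all genes) and 3 lower (37.7%). The summed level of the 10 epicardial markers was 1317 to 1821 CPM in the 8 libraries without TGF-beta and 415 to 470 CPM in the 8 with it, and the part of this change in the members' levels was not tested. Perp went from 13.6 and 12.8 CPM to 25.8 and 24.3 CPM, a 1.90-fold rise (log2 0.93 ± 0.13, adjusted p = 0.000185, edgeR). Aen went from 49.3 and 47.5 CPM to 86.4 and 77.6 CPM (log2 0.76 ± 0.08, adjusted p = 1.54e-05, edgeR). Fas went from 24.3 and 21.5 CPM to 31.1 and 36.1 CPM (log2 0.55 ± 0.14, adjusted p = 0.00863, edgeR). In all 3 the groups did not overlap. Apaf1 went from 56.3 and 68.1 CPM to 91.4 and 89.7 CPM (log2 0.54 ± 0.19, adjusted p = 0.0393, edgeR). Pmaip1, Bax and Tnfrsf10b overlapped between the groups, and Bbc3, from 10.2 and 10.01 CPM to 9.43 and 9.40 CPM, was lower without overlap and did not pass (log2 -0.10 ± 0.23, adjusted p = 0.76, edgeR). Eda2r, at 38.4 and 35.9 CPM with TGF-beta, and Ei24, at 53.3 and 51.7 CPM, were lower without overlap and passed only on 15 libraries (log2 -0.31 and -0.22, adjusted p = 0.0188 and 0.00285, edgeR), where 54% of all genes were called, 26% as higher and 28% as lower. With 1 library left out, Aen and Perp passed in all 4 fits, and Fas did not pass without replicate 2 of either group (adjusted p = 0.0852 and 0.0813, edgeR). Apaf1 passed only without replicate 2 of control siRNA (adjusted p 0.112 to 0.216 in the other 3 edgeR fits).

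In cells with PRMT1 siRNA, TGF-beta raised Bax, Perp and Aen and lowered Pmaip1 and Eda2r, where 32.5% of all genes were called, 16.3% as higher and 16.2% as lower. Pmaip1 went from 28.4 and 25.8 CPM to 18.8 and 16.9 CPM (log2 -0.60 ± 0.12, adjusted p = 0.00217, edgeR) and Eda2r from 96.9 and 92.2 CPM to 58.3 and 66.6 CPM (log2 -0.60 ± 0.18, adjusted p = 0.0226, edgeR). Bax went from 66.5 and 66.7 CPM to 105 CPM in both libraries (log2 0.66 ± 0.20, adjusted p = 0.0266, edgeR). Bax has the shortest exon sequence of the members, and the trend with exon length differed between these groups. Its slope was 0.16 and 0.14 with PRMT1 siRNA and -0.17 and -0.10 with PRMT1 siRNA and TGF-beta. With length offsets on 16 libraries 3 members rose and 2 fell, where 3106 of all genes rose and 2874 fell. Perp went from 15.9 and 15.2 CPM to 23.9 and 22.9 CPM (log2 0.59 ± 0.13, adjusted p = 0.00508, edgeR) and Aen from 78.3 and 75.2 CPM to 97.1 and 98.7 CPM (log2 0.35 ± 0.08, adjusted p = 0.00542, edgeR). In all 5 genes the groups did not overlap. Trp53 rose as well, from 142 and 141 CPM to 192 and 187 CPM (log2 0.42 ± 0.09, adjusted p = 0.00448, edgeR), and its part in these changes was not tested. Fas, Tnfrsf10b, Ei24, Bbc3 and Apaf1 changed by between -0.06 and 0.08 on the log2 scale, none past the test. The same 5 members passed on 15 libraries, where 52.6% of all genes were called, 26.8% as higher and 25.8% as lower. The median of the members was -0.02, against -0.01 over all genes, with 4 members higher (39.5% of all genes) and 4 lower (40.4%) without overlap. In the 4 fits with 1 library left out, Pmaip1 passed each time and Bax never (adjusted p 0.0974 to 0.128, edgeR). Eda2r passed only without replicate 2 of PRMT1 siRNA with TGF-beta (adjusted p 0.0647 to 0.152 in the other 3 edgeR fits). Perp did not pass without replicate 2 of PRMT1 siRNA (0.0552), and Aen did not pass without that library (0.0692) or without replicate 2 of PRMT1 siRNA with TGF-beta (0.0509).

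In cells with p53 siRNA, TGF-beta raised Fas, Aen, Perp and Bax and lowered Eda2r and Pmaip1, where 45.3% of all genes were called, 23.3% as higher and 22% as lower. Fas went from 17.8 CPM in both libraries to 35.9 and 50.6 CPM (log2 1.28 ± 0.14, adjusted p = 1.92e-05, edgeR), and by 1.003 ± 0.108 without the library that stood apart (adjusted p = 3.12e-06, edgeR). Aen went from 32.4 and 34.6 CPM to 59.6 and 67.9 CPM (log2 0.93 ± 0.08, adjusted p = 2.6e-06, edgeR), and Perp from 11.1 and 11.8 CPM to 17.7 and 23.0 CPM (log2 0.83 ± 0.14, adjusted p = 0.000391, edgeR). These 3 rises were present with and without that library and in all 4 fits with 1 library left out. Bax, from 47.3 and 50.6 CPM to 56.1 and 102 CPM (log2 0.69 ± 0.20, adjusted p = 0.0154, edgeR), did not pass without it (log2 0.19 ± 0.10, adjusted p = 0.145, edgeR). Pmaip1 (log2 -0.50 ± 0.14, adjusted p = 0.0124, edgeR) did not pass without it either (log2 -0.34 ± 0.16, adjusted p = 0.0886, edgeR). Eda2r, from 22.0 and 19.7 CPM to 16.2 and 9.49 CPM, changed by -0.70 ± 0.20 with it and by -0.37 ± 0.15 without it (adjusted p = 0.0124 and 0.0499, edgeR). Apaf1, from 55.6 and 60.0 CPM to 89.6 and 51.8 CPM, passed only without it (log2 0.62 ± 0.09, adjusted p = 7.94e-05, edgeR). On 15 libraries 4 members thus rose and 1 fell, where 48% of all genes were called, 23.4% as higher and 24.6% as lower. Bbc3 (log2 0.56 ± 0.23 with the library and -0.02 ± 0.13 without it), Tnfrsf10b (0.00 ± 0.11 and 0.15 ± 0.09) and Ei24 (-0.02 ± 0.08 and -0.16 ± 0.06) did not pass either way. Trp53 (log2 0.28) and Prmt1 (0.59) rose on all libraries (adjusted p = 0.0311 and 0.0116, edgeR) and did not pass without that library (0.256 and 0.0796), and their part in these changes was not tested. The members' median was 0.43 on all libraries and 0.17 on 15, against 0.02 over all genes on all libraries, and 4 members were higher (31% of all genes) and 2 lower (31.5%) without overlap. Without replicate 1 of p53 siRNA, Pmaip1, Bax and Eda2r did not pass (adjusted p = 0.114, 0.0893 and 0.0764, edgeR), and without its replicate 2, Bax did not (0.0538).

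In cells with both siRNAs, TGF-beta raised Perp and Aen and lowered Pmaip1, where 31.3% of all genes were called, 15% as higher and 16.3% as lower. Perp went from 13.01 and 10.8 CPM to 19.9 and 16.6 CPM (log2 0.61 ± 0.13, adjusted p = 0.0041, edgeR). Aen went from 52.6 and 51.3 CPM to 71.7 and 73.9 CPM (log2 0.49 ± 0.08, adjusted p = 0.000621, edgeR), and Pmaip1 from 15.3 and 14.7 CPM to 11.1 and 10.7 CPM (log2 -0.46 ± 0.12, adjusted p = 0.0133, edgeR). Aen and Perp thus rose with TGF-beta under each of the 4 siRNA treatments, which share no libraries. How many of all genes rose under all 4 was not computed, so this is a description of these 2 genes. On 15 libraries Apaf1 (log2 0.46), Ei24 (-0.17) and Eda2r (-0.27) passed as well (adjusted p = 0.000217, 0.0119 and 0.0299, edgeR), where 49.4% of all genes were called, 24.7% as higher and 24.6% as lower. Bbc3, Bax, Fas and Tnfrsf10b changed by between -0.11 (Fas) and 0.14 (Bax) on the log2 scale, none past the test. The members' median was 0.07, against -0.02 over all genes, with 5 members higher (35% of all genes) and 3 lower (36.9%) without overlap. With 1 library left out, Aen passed in all 4 fits, and Perp did not pass without replicate 1 of both siRNAs with TGF-beta (adjusted p = 0.0523, edgeR). Pmaip1 passed only without replicate 2 of both siRNAs without TGF-beta (adjusted p 0.0575 to 0.0883 in the other 3 edgeR fits).

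**Figure D4:**
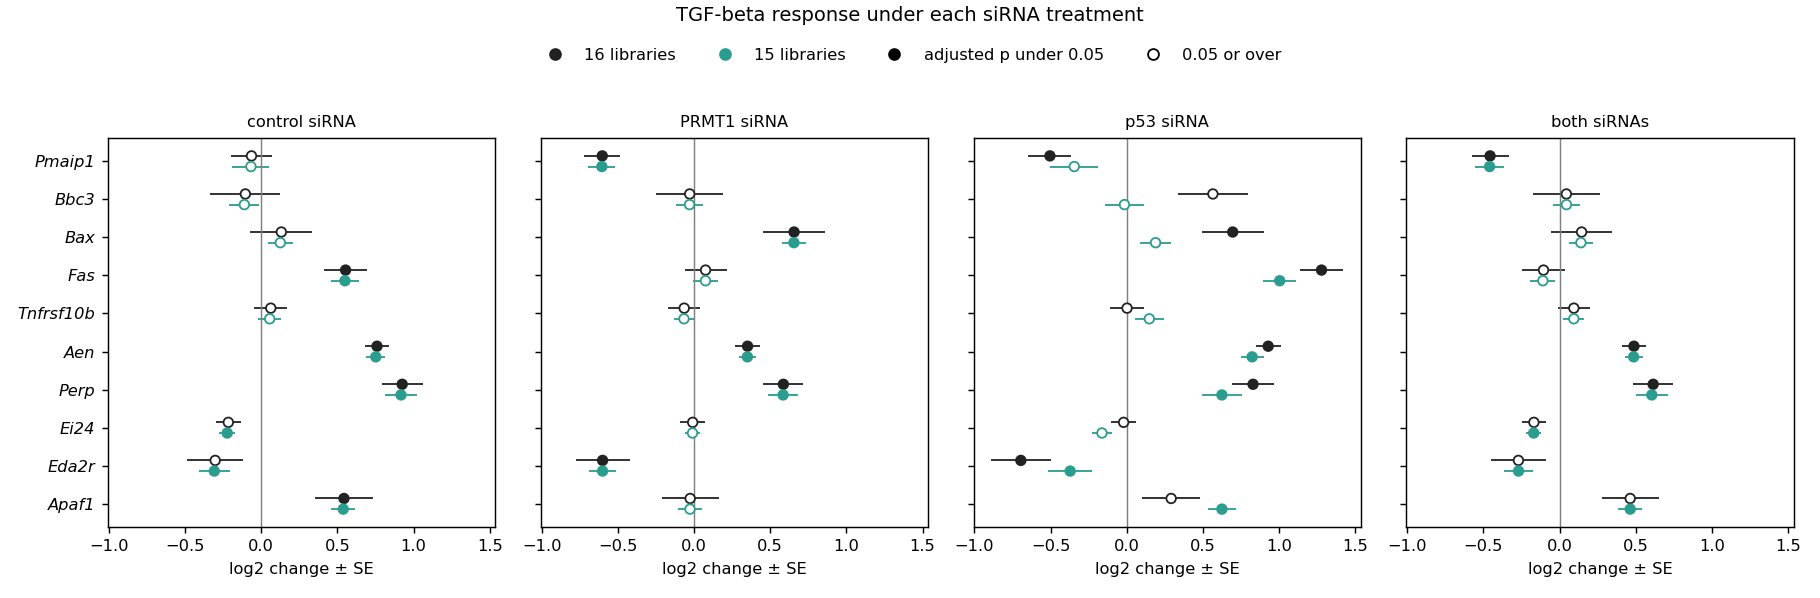
Log2 change of each member with TGF-beta (horizontal axis), with its standard error, under each of the 4 siRNA treatments. Black points come from 16 libraries and green points from 15, and filled points have an adjusted p under 0.05. Aen and Perp lie to the right of 0 in all 4 panels, and Pmaip1 lies to the left with an adjusted p under 0.05 among the black points of every panel but that of control siRNA, while its green point with p53 siRNA is open (adjusted p = 0.0886).

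Whether the PRMT1 siRNA effect differed with TGF-beta was tested with an interaction term. None of the 10 members passed (edgeR, 16 libraries), 3 had an unadjusted p under 0.05, and DESeq2 called 1. Over all genes 2.08% passed, 21.3% had an unadjusted p under 0.05 and DESeq2 called 5.37%. The lowest adjusted p was that of Aen, whose effect was 0.41 ± 0.11 smaller on the log2 scale with TGF-beta (adjusted p = 0.0881, edgeR). On 15 libraries 6 members passed, where 32.3% of all genes did, 17.9% with a positive and 14.4% with a negative term: Pmaip1 (-0.54), Fas (-0.47), Aen (-0.40) and Apaf1 (-0.56) with a smaller or more negative effect in the presence of TGF-beta, and Bax (0.53) and Ei24 (0.21) with a larger one. Their adjusted p lay between 0.00256 (Apaf1) and 0.0396 (Ei24, edgeR). Bbc3, Tnfrsf10b, Perp and Eda2r passed in neither fit, with terms on 16 libraries of 0.08, -0.13, -0.34 and -0.30. With the length trend removed from the 15 libraries the term of Bax was 0.24 and that of Apaf1 -0.36, both still past the test (adjusted p = 0.0338 and 0.00483, edgeR).

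The interaction of the 2 siRNAs asks whether the PRMT1 siRNA effect differed in cells with p53 siRNA. Without TGF-beta no member and no other gene passed (0% of all genes, edgeR, 16 libraries). Of the members 1, Pmaip1, had an unadjusted p under 0.05, where 7.69% of all genes did, and DESeq2 called no member and 0.336% of all genes. The PRMT1 siRNA effect on Pmaip1 was 1.94 with control siRNA and 1.20 with p53 siRNA, a difference of -0.74 ± 0.18 (adjusted p = 0.381, edgeR) that passed on 15 libraries (-0.72 ± 0.15, adjusted p = 0.0214, edgeR), where 9.82% of all genes did, 5.22% with a positive and 4.6% with a negative term. For Eda2r the effects were 1.05 and 1.24, a difference of 0.19 ± 0.26, and for Aen they were 0.66 and 0.63, a difference of -0.03 ± 0.11. The terms of the other 7 members lay between -0.21 (Apaf1) and 0.34 (Fas), with Bbc3 at 0.11, Bax at 0.28, Tnfrsf10b at -0.10, Perp at -0.18 and Ei24 at -0.15, none past the test. The term of Trp53 itself was 0.65 ± 0.13 (adjusted p = 0.221 on 16 libraries and 0.00289 on 15, edgeR). With TGF-beta no member passed either (0.762% of all genes, edgeR). An unadjusted p under 0.05 was found for 4 members, where 27.5% of all genes had one, and DESeq2 called 2 members and 6.42% of all genes. On 16 libraries the terms ran from -0.79 ± 0.28 in Bax to 0.92 ± 0.26 in Eda2r, with Fas at -0.56, Ei24 at -0.50, Bbc3 at -0.49, Pmaip1 at -0.15, Aen and Perp at -0.06, Tnfrsf10b at 0.12 and Apaf1 at 0.53. These terms hold the library that stood apart, and their size depends on it. The members' median term was -0.11 with that library and 0.01 without it, against -0.02 and 0.01 over all genes. On 15 libraries 1 member, Ei24, passed (-0.35 ± 0.08, adjusted p = 0.0396, edgeR), where 2.61% of all genes did, 1.68% with a positive and 0.929% with a negative term.

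The library that stood apart differed from its partner in every member. The log2 ratio of replicate 2 to replicate 1 of p53 siRNA with TGF-beta was 0.99 in Bbc3, 0.87 in Bax, 0.49 in Fas, 0.37 in Perp, 0.26 in Ei24 and 0.19 in Aen. It was -0.33 in Tnfrsf10b, -0.36 in Pmaip1, -0.77 in Eda2r and -0.79 in Apaf1. In all 10 members the size of this ratio exceeded that in each of the other 7 groups. The share of all genes for which this held was not computed, so the count describes the library and is no result about the members. The ratio had a Pearson r of -0.78 against the log of exon length over the 10 genes of this pair of libraries, given as a description. The 4 members with the shortest exon sequence (Bax, Perp, Fas and Bbc3) were higher in replicate 2 and the 2 with the longest (Apaf1 and Eda2r) lower. The order was not strict: Aen, with 5801 bases, and Ei24, with 4868, were higher, and Pmaip1, with 2732, was lower. The slope of log2 CPM on length in that library was -0.64 per 10-fold length, against -0.18 to 0.19 in the other 15 libraries, and the ribosomal RNA gene Rn18s-rs5 held 5.75% of its counts, against 0.557% to 4.35% elsewhere. The part of these in the members' values was not tested.

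**Figure D5:**
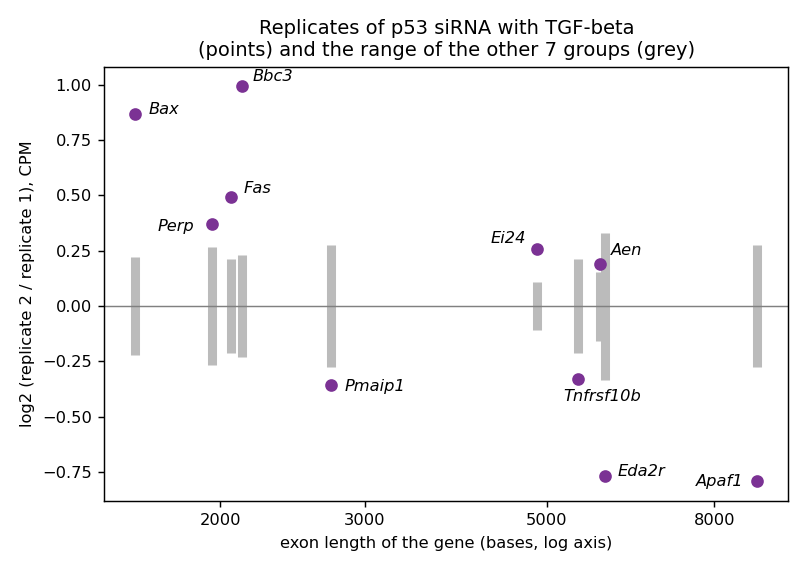
Log2 ratio of replicate 2 to replicate 1 of p53 siRNA with TGF-beta (vertical axis) against the exon length of each member (horizontal axis, bases, log scale). Purple points are the 10 members, and each grey bar spans plus and minus the largest ratio of that gene in the other 7 groups. All 10 points lie outside their own bar, from 0.99 in Bbc3 to -0.79 in Apaf1. The share of all genes for which this holds was not computed.

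The members were set beside other genes of the same pathways. These lists, like the members, were chosen with earlier results of these data known, so the comparison is a description. Of 36 other apoptosis genes (pro- and anti-apoptotic Bcl2 proteins, caspases, their inhibitors and death receptor adaptors), 33 were tested. Their counts are to be read beside the shares of all genes that rose and fell. For PRMT1 siRNA these were 4.48% and 5.85% without TGF-beta and 9.13% and 6.53% with it. For p53 siRNA they were 1.17% and 1.29% without it and 2.82% and 2.39% with it, and for TGF-beta with control siRNA 17.8% and 20.6%. The shares on 15 libraries are given above with each comparison. With PRMT1 siRNA without TGF-beta, 1 rose and 6 fell, with a median log2 change of -0.11, against 6 risen and none fallen among the 10 members. On 15 libraries 3 rose and 14 fell. Among those that fell were Bmf, another BH3-only gene, from 24.4 ± 1.67 to 10.1 ± 0.12 CPM (SD, n = 2; log2 -1.27), Casp6, an executioner caspase (log2 -0.49), Tradd, an adaptor of TNF receptors (log2 -0.63), and Tnfsf10, the ligand TRAIL (log2 -1.42, from 3.07 to 1.15 CPM). The ligand gene Tnfsf10 thus fell while that of its receptor, Tnfrsf10b, rose. With TGF-beta, PRMT1 siRNA lowered 4 and raised none, Bmf (log2 -0.84), Bcl2 (-0.61), Tnfsf10 (-1.46) and Casp9 (-0.35), and on 15 libraries it lowered 10 and raised 4. With p53 siRNA 1 rose and none fell both without TGF-beta (Bcl2l11, which encodes the BH3-only protein Bim, log2 0.59) and with it (Bmf, log2 0.63). On 15 libraries 4 rose and 3 fell without TGF-beta, and 1 rose and 1 fell with it. TGF-beta with control siRNA raised 6 and lowered 11, Bmf by -2.29 and Bcl2l11 by -1.44 on the log2 scale among the latter and Bok, a Bax relative, at 1.91 among the former (6 and 14 on 15 libraries).

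Of 16 other p53 targets linked to cell death, 15 had a row and were tested. The shares of all genes for PRMT1 siRNA and p53 siRNA are those of the paragraph above. For PRMT1 siRNA added to p53 siRNA without TGF-beta, 5.51% of all genes rose and 5.18% fell. For p53 siRNA added to PRMT1 siRNA without TGF-beta the shares were 0.568% and 0.297%. With PRMT1 siRNA without TGF-beta 8 rose and 1 fell (median log2 0.46; 11 and 1 on 15 libraries), with Zmat3, an RNA-binding protein, from 52.5 ± 1.42 to 101 ± 3.47 CPM (SD, n = 2; log2 0.94), and Dram1, a lysosomal protein, at 0.81. With p53 siRNA without TGF-beta 4 fell and none rose (median -0.28), and 6 fell and none rose on 15 libraries. The 4 were Tnfrsf23, a decoy receptor for TRAIL (log2 -0.81), Gtse1 (-0.70), Zmat3 (-0.68) and Phlda3, an inhibitor of Akt (-0.82). PRMT1 siRNA added to p53 siRNA without TGF-beta raised 8 and lowered none (median 0.69; 11 and 1 on 15 libraries), with Phlda3 at 1.21 and Zmat3 at 1.01. p53 siRNA added to PRMT1 siRNA without TGF-beta lowered 1, Zmat3 (log2 -0.61), and raised none on 16 libraries, and lowered 5 and raised 1 on 15. Of 18 p53 targets that act in arrest and repair, 17 were tested. Of these, 6 rose and 2 fell with PRMT1 siRNA without TGF-beta (median 0.37), none rose and 4 fell with p53 siRNA without TGF-beta (median -0.24), and none rose and 4 fell with p53 siRNA added to PRMT1 siRNA without TGF-beta (median -0.28). On 15 libraries these counts were 8 and 2, 1 and 6, and 1 and 9.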

How the data were processed

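RNA from 16 MEC1 libraries was measured by poly(A) RNA sequencing. The authors deposited estimated counts per gene for each library, made with TopHat2 and Partek on the mouse build mm10, per the submitters' processing notes, which give no versions. The deposited expected counts need not be whole (60.0% of those above 0 were whole to within 0.01) and were rounded here. Positions come from the deposited table, 1-based, with 1 base taken off its end coordinate.

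Libraries were scaled by TMM, genes were filtered by filterByExpr on the groups, and the quasi-likelihood test of edgeR 4.0.16 (R 4.3.3) was run on 1 fit of the 16 libraries and 8 group means. The 12 pairwise contrasts and 3 interaction terms were each adjusted over all 15494 genes, with a threshold of 0.05. The fits were run on simulated counts first. Those counts had a smaller spread than the 16 libraries, so that run checks the code and not the error rates in these data. Alternatives were RLE scaling, DESeq2 1.42.0, no filter, a fit of only the groups compared, a replicate block, 15 libraries, offsets for exon length and leaving out each library. Library totals were 19617874 to 30759317 counts, and precision is limited by having 2 libraries per group. Exon lengths and overlaps come from GENCODE vM21 (42003 genes by symbol, 809 by synonym), and promoters from RefSeq.

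The members and the gene lists were chosen with earlier results of these data known. All 10 members are named in every contrast, the siRNA targets Prmt1 and Trp53 in the check of the labels and where a result turns on them, and from each list up to 4 genes with the lowest adjusted p. A result on genes with similar levels is not reported here.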

Additional observations from a re-analysis of the deposited data

How the results depend on the processing

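Of the 150 member results, the 1920 values under other settings kept their direction and their side of the threshold in 1649 cases, lost the call in 101, gained it in 163 and reversed in 7. A change of sign in a value called under neither setting is counted as unchanged here and occurred 84 times. The reversals were Bax for p53 siRNA with TGF-beta (0.21 to -0.32 with length offsets on 15 libraries), and, for PRMT1 siRNA added to p53 siRNA with TGF-beta, Bbc3 (-0.12 to 0.46 on 15 libraries, the fit that leaves out replicate 2 of the group with p53 siRNA and TGF-beta), Bax (-0.18 to 0.33 on 15 libraries and 0.24 with length offsets on 15 libraries) and Apaf1 (-0.02 to 0.43 without that group's replicate 1). With each library left out in turn, their ranges in that comparison were -0.54 to 0.46, -0.55 to 0.33 and -0.35 to 0.43. In comparisons that use the group with p53 siRNA and TGF-beta, the fit on 15 libraries is also the fit that leaves out its replicate 2. Its values are counted under both names, among them the reversals of Bbc3 and Bax on 15 libraries.

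The number of members called moved as follows. The number of all genes called moved with the settings too, so these counts describe the settings and are no result about the members. On 15 libraries and with length offsets on 15 libraries it was 8 and 8 for PRMT1 siRNA with TGF-beta (5 on all libraries), 6 and 6 for p53 siRNA without TGF-beta (2), 7 and 8 for p53 siRNA added to PRMT1 siRNA without TGF-beta (3), 6 and 6 for the same with TGF-beta (2), and 8 and 8 for PRMT1 siRNA added to p53 siRNA with TGF-beta (3). It was 6 and 7 for the TGF-beta response with both siRNAs (3), and 7 with length offsets on 15 libraries for that with control siRNA (4). It was 6 and 7 for the interaction of PRMT1 siRNA with TGF-beta, and 1 and 1 for each interaction of the siRNAs (0 on all libraries in all 3). With length offsets on 16 libraries it was 8 for PRMT1 siRNA with TGF-beta (3234 of all 15494 genes) and 1 for p53 siRNA added to PRMT1 siRNA with TGF-beta (193). In that setting it was 2 for the interaction of PRMT1 siRNA with TGF-beta (837) and 1 for that of the siRNAs with TGF-beta (324). In fits of only the groups compared it was 8 for PRMT1 siRNA with TGF-beta (7608 of all 15494 genes) and 0 for p53 siRNA with TGF-beta (0). In these fits it was 6 and 7 for p53 siRNA added to PRMT1 siRNA without and with TGF-beta (2362 and 2994). For PRMT1 siRNA added to p53 siRNA with TGF-beta it was 0 (0). It was 2 and 5 for TGF-beta with p53 siRNA and with both siRNAs (2094 and 6503), and 6 for the interaction of PRMT1 siRNA with TGF-beta (4818). Without the filter on low counts it was 5 for p53 siRNA with TGF-beta (3301 of 27681 genes) and 4 for p53 siRNA added to PRMT1 siRNA with TGF-beta (586). It was 2 and 5 for the interactions of PRMT1 siRNA with TGF-beta and of the siRNAs with TGF-beta (2128 and 3175). DESeq2 called 1 and 2 members in those interactions.

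With 1 library left out, the number of members called ranged from 4 to 5 for PRMT1 siRNA without TGF-beta and 2 to 3 with it, 0 to 1 for p53 siRNA without TGF-beta and 1 to 9 with it, 0 to 0 for p53 siRNA added to PRMT1 siRNA in both conditions, and 4 to 5 without and 3 to 8 with TGF-beta for PRMT1 siRNA added to p53 siRNA. It ranged from 2 to 3, 1 to 3, 3 to 7 and 1 to 3 for the TGF-beta response with control, PRMT1, p53 and both siRNAs, and from 0 to 6 for the interaction of the siRNAs with TGF-beta. The biological coefficient of variation common to all genes was 0.114 on 16 libraries and 0.0602 on 15, and the cause of the other changes was not tested.

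The number of all genes called moved as well. It was 4317 on 15 libraries for PRMT1 siRNA without TGF-beta (1601 on all) and 6674 with it (2427), 1880 for p53 siRNA without TGF-beta (382), 3538 and 2050 for p53 siRNA added to PRMT1 siRNA without and with TGF-beta (134 and 70), 5041 for PRMT1 siRNA added to p53 siRNA without TGF-beta (1656), 8154 and 7647 for TGF-beta with PRMT1 and with both siRNAs (5035 and 4851), and 5002, 1522 and 404 for the 3 interactions (322, 0 and 118). For p53 siRNA with TGF-beta it ranged from 0 in a fit of only those groups to 3301 without a filter (808), and for PRMT1 siRNA added to p53 siRNA with TGF-beta from 0 to 2908 in the same settings (1573). The TGF-beta response with p53 siRNA had 2094 in a fit of only its groups (7012). With 1 library left out, the counts were 412 to 566 and 702 to 827 for PRMT1 siRNA without and with TGF-beta, 55 to 130 and 151 to 8599 for p53 siRNA, 4 to 9 and 1 to 13 for p53 siRNA added to PRMT1 siRNA, 468 to 718 and 386 to 8245 for PRMT1 siRNA added to p53 siRNA, and 55 to 147, 0 to 0 and 15 to 8433 for the 3 interactions. For TGF-beta they were 4358 to 4656, 3133 to 3275, 5132 to 10040 and 3194 to 3548 with control, PRMT1, p53 and both siRNAs.

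The replicate numbers did not pair the libraries: of 28 pairs of groups, 6 had same-numbered deviations correlated above 0.1, with a range of -0.40 to 0.25 over genes. The fit with the replicate number as a block lost 4 of the member calls and changed no other: Aen for PRMT1 siRNA with TGF-beta (adjusted p = 0.0724), Eda2r for p53 siRNA added to PRMT1 siRNA without TGF-beta (0.0646), Aen for the same with TGF-beta (0.0884, edgeR in each case), where 1 member remained called, and Apaf1 for TGF-beta with control siRNA (0.0552). Over all genes it gave 60 and 36 calls for p53 siRNA added to PRMT1 siRNA without and with TGF-beta, 1 for the interaction of the siRNAs without TGF-beta and 75 for that with it.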

Other observations

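Among the members themselves, 37 of the 45 pairs had a Pearson r above 0 over the 8 group means of log2 CPM. The median was 0.51 and the range from -0.61 (Ei24 with Apaf1) to 0.94 (Pmaip1 with Tnfrsf10b). With the library that stood apart left out of its group mean, 38 pairs were above 0, with a median of 0.58 and a range from -0.68 (Ei24 with Apaf1) to 0.97 (Bbc3 with Eda2r, at 0.56 with the library). The same libraries enter every pair, and these values are descriptions. The share of pairs above 0 among other genes was not computed, so the counts of pairs are no result about the members. Pmaip1 and Eda2r had an r of 0.89, and Aen and Perp one of 0.85, while Apaf1 was below 0 with Ei24, Pmaip1, Eda2r, Tnfrsf10b and Bbc3. Against the Trp53 group means the r was highest in Eda2r (0.76), Aen (0.73) and Tnfrsf10b (0.71) and lowest in Ei24 (0.27). Without that library the order was another: Bbc3 (0.83), Bax (0.80) and Eda2r (0.80) had the highest r and Apaf1 (-0.02) the lowest, against 0.63, 0.61, 0.76 and 0.29 with it. On all libraries the r against the Prmt1 group means was lowest in Pmaip1 (-0.87), Tnfrsf10b (-0.85) and Ei24 (-0.85) and highest in Apaf1 (0.39). Without that library it was lowest in Ei24 (-0.90) and highest in Apaf1 (0.54).

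Among genes that averaged 5 CPM or more, the 2 genes whose 8 group means were most like those of a member were Ccdc43 and Rnf6 for Pmaip1 (Pearson r 0.99 and 0.97), Slc19a2 and Ccng1 for Eda2r (0.98 and 0.97), and Tcaim and Polk for Tnfrsf10b (0.98 and 0.98). Ccng1 and Polk are themselves known p53 targets. For Fas they were Reep4 and Aars2 (0.96 and 0.96), for Aen Bpnt1 and Dkc1 (0.99 and 0.99), for Perp Zyx and Cep76 (0.99 and 0.99), and for Ei24 Nfkbia and Mrpl45 (0.98 and 0.98). For Bbc3 they were Hspbap1 and Prosc (0.97 and 0.97), and for Apaf1 Ppfia1 and Sec24a (0.99 and 0.99). For Bax the most alike gene was Timm17a (0.98). With the library that stood apart left out of its group mean, the r of these pairs lay between 0.926 and 0.994.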
